A study of Mus musculus with 27 samples.

Results

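The comparison described here is the step from 42 h to 48 h after a serum pulse in C2C12 myotubes, taken over all genes with enough reads to test. It uses 6 of the 27 RNA-seq libraries of a time course, 3 collected at 42 h and 3 at 48 h, chosen by their time point labels alone. Of 20446 genes in the count table, 12687 passed the filter on low counts and 7759 did not.

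C2C12 is an established mouse myoblast line whose cells fuse into multinucleate, contractile myotubes when serum is lowered. Per the labels, the myoblasts were grown with 10% fetal bovine serum, differentiated in 2% horse serum, and given 50% horse serum for 2 h, a treatment that sets the circadian clocks of cultured cells to a common phase. Libraries were made every 6 h from 12 h to 60 h with a stranded kit from total RNA after removal of ribosomal RNA. Both groups of the comparison are the same line with the same pulse and are labelled with different times since it, and no culture without the pulse was analysed here. Nothing in the labels says that the 3 libraries of a time point came from separate cultures, so the p-values reflect how far these particular libraries scatter, and part or all of that scatter may be technical.

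In mammalian cells the circadian clock is a feedback loop in which the activators CLOCK and ARNTL drive their own repressors, the period and cryptochrome proteins, with a cycle of about a day. Skeletal muscle cells carry this clock, and in muscle it is known for its link to glucose handling and to myogenic programmes. A serum pulse also triggers growth factor signalling, including immediate early genes and the serum response factor SRF, which is controlled by actin dynamics. A time course after a pulse therefore holds both clock-driven changes and the slow return from the pulse.

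The 6 libraries held 18706020 to 23803475 assigned reads each. No pair of libraries within a time point agreed within sampling noise, and the second 48 h library lay farthest from its group, with a standard deviation of gene deviations of 0.257 on the log2 scale against 0.143 to 0.206 in the other 5. All 8 skeletal muscle markers were detected in every library, with a summed level of 15192 to 16186 CPM (read counts per gene scaled to the library total) at 42 h and 14776 to 16846 at 48 h. Markers of immune and endothelial cells summed to 3.62 to 4.59 CPM at 42 h and 3.82 to 4.40 at 48 h, with Cd3e, Cd79a and Tie1 at 0 in all 6 libraries. Markers of fat cells summed to 18.8 to 20.7 CPM at 42 h and 18.9 to 19.7 CPM at 48 h, mostly from the transcription factors Cebpa and Pparg, and Plin1, Cidec, Lep and Retn were at 0 in all 6. Other lists were not low. Markers of bone and cartilage cells summed to 1993 to 2609 CPM at 42 h and 2181 to 2787 CPM at 48 h. Most of this was Spp1, and Ibsp and Acan were at 0 in all 6. Neural markers summed to 196 to 222 CPM and then 179 to 237 CPM. Most of this was Tubb3 and Map2, and Snap25 and Olig2 were at 0 in all 6. Because these are bulk cultures, fewer cells of a type and less RNA per cell cannot be told apart.

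Few genes were called between 42 h and 48 h. At an adjusted p under 0.05 (edgeR's quasi-likelihood test with Benjamini-Hochberg adjustment over all 12687 genes), 7 genes rose and 10 fell, which is 0.134% of the genes tested (0.0552% higher and 0.0788% lower). The genes that rose were Scml4, Mxd1, Ddx17, Pdk1, Tgm2, Col25a1 and Rflnb. Those that fell included Gpr176, Rxfp3, Sema7a, Mmd, Ahrr, Tbc1d4, Ppp1r3c, Fbxo40 and Kbtbd12. Their differences ranged in size from 0.32 to 1.29 on the log2 scale, where the median gene moved by 0.067 in either direction and 47 genes moved by 1 or more. Libraries numbered 2 and those numbered 3 deviated together between 42 h and 48 h (r = 0.577 and 0.488), and those numbered 1 hardly did (0.132). With the replicate number as a block the test called 69 genes (0.544%), 30 higher (0.236%) and 39 lower (0.307%), with all 17 among them. In the text below "called" means the test without the block unless the block is named.

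Single libraries mattered for these counts. Leaving out 1 of the 6 libraries left 4 to 6 genes higher and 2 to 6 lower. Of the 17 genes, 12, 8 and 9 were still called without library 1, 2 or 3 of 42 h, and 10, 6 and 6 without library 1, 2 or 3 of 48 h. Scml4, Mxd1, Ddx17 and Gpr176 were called in all 6 of these fits. Kbtbd12, Pdk1 and Rxfp3 were called in none of them. Fbxo40 was called only without library 1 of 42 h, and Ppp1r3c and Mmd only without library 3 of 42 h. When the 6 libraries were fitted alone without the block, 0 of the 17 were called. The same held when 1 replicate number was left out at every time point. On the 6 libraries alone the block gave calls for 16 of the 17. With the block, 16 of the 69 genes were called whichever single library was left out, 12 of the 17 together with Abra, Inhbb, Plat and Wdr1, and the other 53, among them Fbxo40, Kbtbd12, Pdk1, Ppp1r3c and Rxfp3, were lost without at least 1 library. Every one of the 17 kept its direction in every fit.

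**Figure D1:**
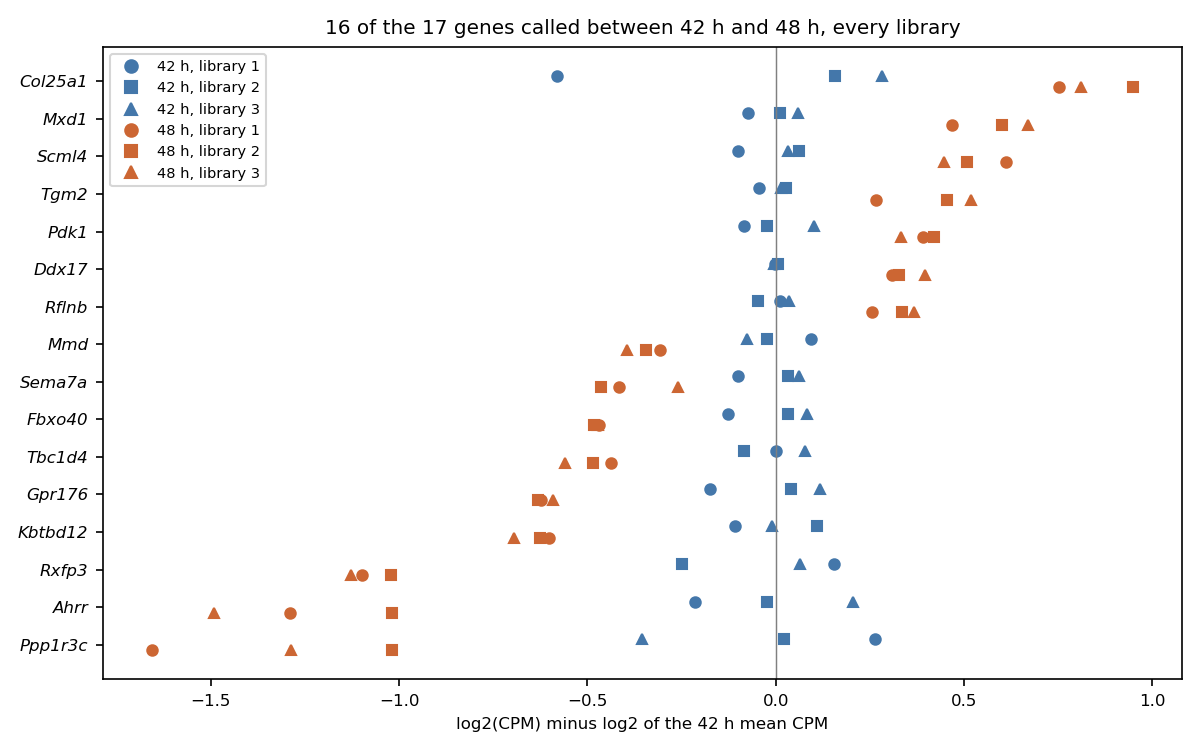
Every library of 16 of the 17 called genes, as log2 of CPM minus log2 of the gene's 42 h mean CPM. Blue symbols are the 3 libraries of 42 h and orange symbols the 3 of 48 h, with the symbol shape giving the library number. The 2 groups do not overlap for any of the 16 genes, which the rule for naming called genes required. Over all genes tested, the 48 h libraries lay wholly above for 3.77% and wholly below for 4.56%. The first 42 h library of Col25a1 lies apart at 11.6 CPM.

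Among the genes that rose, 3 act on transcription or RNA. Scml4, a member of a polycomb-related protein family, was at 32.3, 36.2 and 35.5 CPM at 42 h and at 53, 49.3 and 47.3 CPM at 48 h. All 48 h libraries were above all 42 h libraries, a rise of 0.52 ± 0.07 on the log2 scale (SE; edgeR adjusted p = 0.000595). Mxd1, which pairs with MAX and opposes MYC, was at 33.4, 35.4 and 36.6 CPM and then at 48.7, 53.3 and 55.9 CPM, again without overlap (log2 0.58 ± 0.09, SE; edgeR adjusted p = 0.00457). Ddx17, a DEAD-box RNA helicase that takes part in splicing and works with the myogenic factor MYOD, had the narrowest spread of the group at 42 h, with 232, 233 and 231 CPM. It reached 287, 291 and 305 CPM at 48 h, and its log2 difference of 0.34 ± 0.04 (SE; edgeR adjusted p = 0.000595) was the same in direction for each library number.

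Pdk1, the pyruvate dehydrogenase kinase that holds back the entry of pyruvate into the citric acid cycle, was at 46.8, 48.8 and 53.3 CPM at 42 h. At 48 h it was at 65.1, 66.4 and 62.5 CPM, so the groups stood apart with a log2 difference of 0.38 ± 0.08 (SE; edgeR adjusted p = 0.0448). This call was lost in each of the 6 fits that left out 1 library (largest edgeR adjusted p = 0.338), and with the block it was lost without the first 42 h or the second 48 h library (at most 0.0852).

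The other genes that rose encode structural or matrix proteins. Tgm2, a transglutaminase that crosslinks proteins, was at 58.2, 61.1 and 60.5 CPM and then at 72.1, 82.2 and 85.9 CPM, so it was higher in all 48 h libraries (log2 0.42 ± 0.07, SE; edgeR adjusted p = 0.00457, and 0.0513 without the third 48 h library). Of its exonic bases, 8.03% overlap Rprd1b on the opposite strand, and whether the counting used strand is not given in the sources used here. Rflnb, which binds the actin crosslinker filamin, went from 169, 162 and 171 CPM to 200, 211 and 216 CPM, with a narrow spread in both groups. Its log2 difference was 0.32 ± 0.05 (SE; edgeR adjusted p = 0.00896). Rflnb was not called without library 2 of 42 h or library 2 or 3 of 48 h (at most 0.0979). Col25a1, a transmembrane collagen of muscle fibres needed for motor innervation, varied most at 42 h, with 11.6, 19.3 and 21.0 CPM. The 48 h values of 29.1, 33.3 and 30.3 CPM were all higher, and the log2 difference of 0.84 ± 0.14 (SE; edgeR adjusted p = 0.00888) was the largest of the 7. It was not called without the second 48 h library (0.0810).

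Of the genes that fell, 4 encode cell surface proteins or membrane receptors. Gpr176, an orphan G protein-coupled receptor known from the circadian pacemaker of the brain, was at 37.9, 44.0 and 46.5 CPM at 42 h and within 27.6 to 28.4 CPM in the 48 h libraries. The groups were well apart, with a difference of -0.62 ± 0.08 on the log2 scale (SE; edgeR adjusted p = 0.000844). Rxfp3, a receptor for relaxin-family peptides, was low throughout, at 2.04, 1.54 and 1.91 CPM and then at 0.855, 0.901 and 0.837 CPM. Its log2 difference was -1.08 ± 0.22 (SE; edgeR adjusted p = 0.0464), the weakest of the 17 calls, and DESeq2 and limma-voom did not call it.

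Sema7a, a semaphorin anchored in the membrane by a lipid, went from 158, 173 and 177 CPM to 127, 123 and 142 CPM. Mmd, a membrane protein of the progestin and adipoQ receptor family, went from 224, 207 and 199 CPM to 170, 165 and 160 CPM. Neither pair of groups overlapped. The log2 differences were -0.38 ± 0.07 for Sema7a and -0.35 ± 0.06 for Mmd (SE; edgeR adjusted p = 0.0448 and 0.0222). Sema7a was not called without library 2 or 3 of 42 h or library 1 or 2 of 48 h (at most 0.318). Mmd was lost in every fit that left out 1 library, except the one without library 3 of 42 h (at most 0.247).

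Ahrr, the repressor and transcriptional target of the aryl hydrocarbon receptor, was at 4.17, 4.76 and 5.57 CPM at 42 h and at 1.98, 2.39 and 1.72 CPM at 48 h. Its level at 42 h was 2.39 times that at 48 h, with no overlap between the groups (log2 -1.26 ± 0.21, SE; edgeR adjusted p = 0.00731). Ahrr was not called without library 3 of either time point (at most 0.0906). Cyp1b1, another target of that receptor, was at 77.6, 70.4 and 77.6 CPM and then at 69, 52 and 65.5 CPM, and was called lower with the block (edgeR adjusted p = 0.0442; 0.505 without the block). With the block and another scaling, the median of ratios, Cyp1b1 was at 0.0535, and with the block alone it was lost in 5 of the 6 fits that left out 1 library (at most 0.340).

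The plasminogen system generates the protease plasmin, which takes part in matrix turnover. Some of its genes, named after their values were seen, were called lower with the block. Among these were Plat, the tissue activator, from 188, 195 and 171 CPM to 137, 169 and 141 CPM (edgeR adjusted p = 0.00313), Plaur, the urokinase receptor (0.0314), and Serpinb2, an inhibitor of the activators (0.00861). Without the block the adjusted p-values of these 3 were 0.743, 0.574 and 0.241. With it, Plaur was lost without library 1 or 3 of either time point (at most 0.232) and Serpinb2 without library 3 of either (at most 0.0896). Serpinb2 shares 12.4% of its exonic bases with Serpinb10. In the 6 h steps from 18 h, 30 h and 54 h, the log2 differences of Plat with the block were -0.002, 0.28 and 0.19. Those of Plaur were -0.28, -0.25 and -0.34, and those of Serpinb2 were -0.59, -0.91 and -0.89.

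Another 4 genes that fell are known from muscle metabolism and protein turnover, or belong to the kelch family. Tbc1d4 (AS160), which holds back the glucose transporter GLUT4 until insulin or contraction releases it, went from 20.8, 19.6 and 21.9 CPM to 15.3, 14.8 and 14.1 CPM. The groups were apart, with a log2 difference of -0.49 ± 0.08 (SE; edgeR adjusted p = 0.00888). Tbc1d4 was not called without library 3 of 42 h or library 2 or 3 of 48 h (at most 0.0921). Ppp1r3c, which brings protein phosphatase 1 to glycogen, was at 6.07, 5.13 and 3.95 CPM and then at 1.60, 2.49 and 2.07 CPM. Its difference was the largest in size of the 17 (log2 -1.29 ± 0.26, SE; edgeR adjusted p = 0.0448), with a wide error at this low level, and limma-voom did not call it.

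Fbxo40, a muscle subunit of a ubiquitin ligase that targets the insulin receptor substrate IRS1, was at 21.8, 24.4 and 25.2 CPM and then within 17.1 to 17.2 CPM. Kbtbd12, a kelch and BTB domain protein, was at 7.75, 9.0 and 8.29 CPM and then at 5.5, 5.41 and 5.15 CPM. For both genes the 48 h libraries were nearly alike and all below the 42 h ones. The call of Kbtbd12 was lost in each fit that left out 1 library (largest edgeR adjusted p = 0.281). That of Fbxo40 was lost in all of them except the one without the first 42 h library (at most 0.256). The log2 differences were -0.47 ± 0.09 for Fbxo40 and -0.64 ± 0.13 for Kbtbd12 (SE; edgeR adjusted p = 0.0286 and 0.0448).

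Among the genes called lower with the block were Srf itself and several genes linked to the actin cytoskeleton, whereas Rflnb, described above, was higher. Srf is a member of the immediate early list, the group as a whole is no list, and its genes were named after their values were seen. Actin dynamics control SRF through its coactivators, and SRF binds the CArG box. Over windows of 250 bases before to 50 after the start site, a CArG box (both strands) was found for 3 of the 32 genes lower with the block that could be matched, against 1.60% of the 9972 tested genes with a window, and for 0 of the 24 matched genes that were higher. The 250 bases before the start site of these 3 genes are shown because they hold the matches, which are in capitals (RefSeq, GRCm38.p6). They lie at chr17:46556163-46556412 on the minus strand for Srf, chr10:79988350-79988599 on the plus strand for Cnn2 and chr6:112273508-112273757 on the plus strand for Lmcd1.
Srf: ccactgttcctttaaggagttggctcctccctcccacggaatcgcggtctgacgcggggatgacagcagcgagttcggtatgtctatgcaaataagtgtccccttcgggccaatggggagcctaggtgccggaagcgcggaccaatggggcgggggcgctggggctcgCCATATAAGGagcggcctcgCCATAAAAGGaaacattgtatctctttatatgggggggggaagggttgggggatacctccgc
Cnn2: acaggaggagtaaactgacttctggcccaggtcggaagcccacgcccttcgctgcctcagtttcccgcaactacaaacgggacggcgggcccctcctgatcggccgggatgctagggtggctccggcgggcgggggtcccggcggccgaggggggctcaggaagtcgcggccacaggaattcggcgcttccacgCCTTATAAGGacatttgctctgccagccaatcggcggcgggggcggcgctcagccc
Lmcd1: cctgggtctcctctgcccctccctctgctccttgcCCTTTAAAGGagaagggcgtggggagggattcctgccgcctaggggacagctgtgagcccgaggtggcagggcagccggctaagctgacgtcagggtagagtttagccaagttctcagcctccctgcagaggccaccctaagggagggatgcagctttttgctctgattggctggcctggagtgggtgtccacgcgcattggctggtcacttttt
Srf has 2 matches close together and the other genes have 1 each. A match is a run of letters and not a measured binding site.

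Srf was at 87.8, 83.4 and 101 CPM at 42 h and at 78.6, 57.8 and 78.6 CPM at 48 h. All 48 h libraries were below all 42 h libraries, and the log2 difference was -0.34 ± 0.07 with the block (SE; edgeR adjusted p = 0.018, and 0.928 without the block). Cnn2, the actin-binding protein calponin 2, was at 541, 562 and 624 CPM and then at 473, 479 and 530 CPM (edgeR adjusted p = 0.00997 with the block, 0.37 without). Lmcd1, a LIM domain protein of striated muscle, was at 25.2, 22.2 and 18.5 CPM and then at 12.2, 17 and 14.4 CPM (0.0111 with the block, 0.359 without). Single libraries decided these calls. With the block, Srf was lost without library 2 or library 3 of either time point (at most 0.158), Cnn2 without library 3 of 42 h or library 1 or 2 of 48 h (at most 0.119), and Lmcd1 without the first library of either time point (at most 0.127).

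Abra (STARS), a muscle protein that binds actin and raises SRF activity, was called with the block whichever library was left out. It was at 61.6, 65.7 and 59.8 CPM at 42 h and at 45.2, 48.4 and 41.7 CPM at 48 h, with a log2 difference of -0.47 ± 0.07 with the block (SE; edgeR adjusted p = 0.000324, and 0.141 without the block). Wdr1, which helps to take actin filaments apart, fell from 680, 723 and 685 CPM to 552, 609 and 540 CPM (0.000324 with the block, 0.192 without). For Abra and Wdr1 the groups did not overlap. Cav1 of the caveolae, the unconventional myosin Myo1c and Vgll3, a cofactor of the TEAD factors, were also called lower with the block (edgeR adjusted p = 0.0235, 0.0442 and 0.0318), each lost without at least 4 of the 6 libraries in turn (at most 0.211, 0.223 and 0.213). With median of ratios scaling and the block, Myo1c was not called (0.0526).

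The lists of immediate early genes and of smooth muscle contractile genes gave few calls. Of 24 immediate early genes tested, 17 had a negative difference, and the median was -0.08 on the log2 scale against 0.00 over all genes. edgeR called 0 of them without the block, as did DESeq2 and limma-voom, and Srf alone with it, while 3 had an unadjusted p under 0.05 (Srf, Atf3 and Fos, all lower; 2.29% of all genes were lower by that rule, and 4.81% with the block, where 5 were). Fos was at 11.2, 9.89 and 10.5 CPM and then at 8.39, 9.44 and 8.15 CPM. Of 7 smooth muscle contractile genes, which myotubes also express, 5 were negative with a median of -0.18. Their summed level was 8752 to 9524 CPM at 42 h and 8146 to 9053 CPM at 48 h, so the ranges overlapped.

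Growth factor lists gave few calls as well. Of 13 targets of YAP and TEAD, 10 were negative with a median of -0.03. Crim1 and Ajuba were called lower with the block (edgeR adjusted p = 0.0246 and 0.0379; 0.193 and 0.572 without). With the block, Ajuba was lost whichever library was left out (0.0565 to 0.201) and Crim1 in 5 of the 6 such fits (at most 0.195). Ccn2 (CTGF), a classic target, was at 404, 448 and 447 CPM and then at 354, 328 and 344 CPM, without overlap, as for 4.56% of all genes, but not called (edgeR adjusted p = 0.505, and 0.0949 with the block). Ankrd1, another target, had a mean of 1134 ± 82.3 CPM at 42 h and 1148 ± 67.7 CPM at 48 h (SD, n = 3 each).

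Of 16 tested feedback genes of TGF beta, activin and BMP signalling, 10 were negative. Of these, 1 was called lower by edgeR without the block and by limma-voom, and 2 by DESeq2. With the block edgeR called 2 lower (0.307% of all genes), among them Inhbb, which encodes an activin subunit. Inhbb fell from 252, 242 and 264 CPM to 202, 208 and 220 CPM, so the groups did not overlap (edgeR adjusted p = 0.00313 with the block, 0.0663 without). Among the ERK feedback genes, Spry1 was called higher with the block, at 69.3, 78.8 and 71.6 CPM and then 87.3, 92.2 and 87.0 CPM (edgeR adjusted p = 0.018; 0.126 without), and it was lost with the block without library 1 or 3 of 42 h or library 1 or 2 of 48 h (at most 0.126). Ptgs2, the inducible cyclooxygenase, went the other way, from 129, 139 and 137 CPM to 120, 101 and 98.5 CPM (0.0362 with the block, 0.287 without), and was lost with the block without library 2 or 3 of either time point (at most 0.219).

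Targets of the hypoxia-inducible factor HIF1 leaned upward from 42 h to 48 h. Of 17 tested, 16 had a positive difference, with a median of 0.20 on the log2 scale, and for 9 all 48 h libraries lay above all 42 h libraries, as they did for 3.77% of all genes. At an unadjusted p under 0.05, 6 were higher (5 to 9 when 1 library was left out), against 1.84% of all genes, and 11 with the block, against 3.9%. After adjustment edgeR called Pdk1 alone without the block, and Pdk1, Bnip3 and Egln3 with it. The lists and this step were examined with earlier results of these data known, so these counts describe the list and do not test it.

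Bnip3, a mitochondrial protein that marks mitochondria for removal, was at 19.4, 20.7 and 19.9 CPM at 42 h and at 28.5, 27.8 and 25.2 CPM at 48 h, a log2 difference of 0.44 ± 0.08 with the block (SE; edgeR adjusted p = 0.00453, and 0.37 without the block). Egln3, one of the prolyl hydroxylases that mark HIF1 for destruction and are themselves its targets, was at 56.3, 52.6 and 52.4 CPM and then at 67.0, 63.8 and 64.3 CPM (0.0314 with the block, 0.174 without). Both were higher in every 48 h library than in any 42 h library. With the block, Bnip3 was lost without the first 42 h library alone (0.0516), and Egln3 was lost in 5 of the 6 fits, all but the one without the first 42 h library (at most 0.203). The window scanned for Pdk1, the other gene of the list called with the block, held no match to the core of the hypoxia response element. The 250 bases before the start sites of Bnip3 and Egln3 are shown because they hold matches to it. The core, ACGTG on either strand, is in capitals, where overlapping matches run together (RefSeq, GRCm38.p6; Bnip3 at chr7:138909507-138909756 and Egln3 at chr12:54203875-54204124, both on the minus strand).
Bnip3: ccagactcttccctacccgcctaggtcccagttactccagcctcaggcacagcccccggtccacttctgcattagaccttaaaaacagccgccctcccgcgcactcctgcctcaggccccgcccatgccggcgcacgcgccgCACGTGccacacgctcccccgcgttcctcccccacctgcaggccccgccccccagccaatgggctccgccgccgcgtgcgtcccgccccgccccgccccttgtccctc
Egln3: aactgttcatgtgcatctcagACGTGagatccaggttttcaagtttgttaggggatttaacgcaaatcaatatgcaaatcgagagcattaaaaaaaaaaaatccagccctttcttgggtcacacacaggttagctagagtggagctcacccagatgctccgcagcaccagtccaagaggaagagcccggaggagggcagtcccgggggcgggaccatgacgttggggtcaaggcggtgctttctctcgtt
The run of capitals in Bnip3 is at once an E-box, CACGTG, and a match to the core on each strand. This short core was found for 5 of 24 matched genes higher with the block and 7 of 32 lower, against 29.1% of the tested genes with a window, and the E-box for 1 and 4, against 11.7%.

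Other genes of the HIF1 list gave the same direction without a call. Egln1 had means of 78.9 ± 2.66 and 91.7 ± 6.52 CPM (SD, n = 3 each; edgeR adjusted p = 0.572). Vegfa had means of 134 ± 9.34 and 152 ± 9.38 CPM, and Slc2a1, the glucose transporter GLUT1, 61.8 ± 5.13 and 73.8 ± 12.1 CPM (SD, n = 3 each). Hilpda was the single negative member, at 10.3 ± 0.447 and 9.24 ± 1.59 CPM (SD, n = 3 each). Of 23 genes of glycolysis and glycogen, 19 were positive with a median of 0.07, and Pfkl, the liver-type phosphofructokinase, was called with the block. It went from 111, 136 and 130 CPM to 141, 187 and 161 CPM (edgeR adjusted p = 0.0139 with the block, 0.575 without), and was lost with the block without library 1 or 2 of 42 h or library 2 or 3 of 48 h (at most 0.123).

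**Figure D2:**
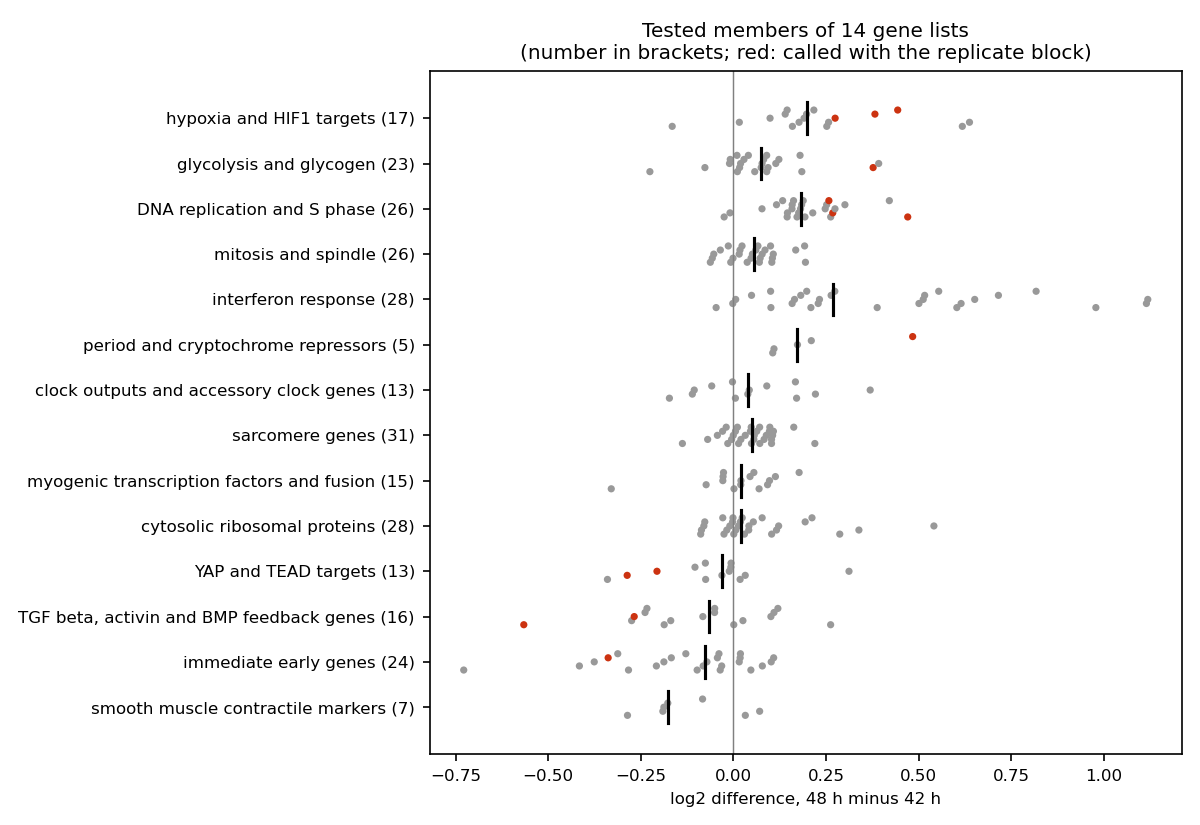
Log2 difference, 48 h minus 42 h, for each tested member of 14 gene lists, with black bars at the list medians and red points for genes called with the replicate block. The medians run from -0.18 for smooth muscle genes to 0.27 for the interferon list, and ribosomal, sarcomere and mitosis genes crowd around 0.

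Genes of DNA replication and S phase also leaned upward, by small amounts. Of 26 tested, 24 had a positive difference, with a median of 0.18, and 12 were higher at an unadjusted p under 0.05 (1.84% of all genes). That count fell to 6 without the second 48 h library, and to 5 and 7 when the first or the second library of every time point was left out. After adjustment edgeR, DESeq2 and limma-voom each called 0 without the block. With it, Ccne2, Mcm5 and Mcm3 were called.

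Ccne2, cyclin E2, which opens S phase, was at 26.1, 29.9 and 26.3 CPM and then at 39.3, 41.8 and 33.0 CPM, a log2 difference of 0.47 ± 0.10 with the block (SE; edgeR adjusted p = 0.0271, and 0.39 without). Of its exonic bases, 17.4% overlap Ints8 on the opposite strand. Mcm5 and Mcm3, subunits of the replicative helicase, rose from 59.4, 62.1 and 57.1 CPM to 72.1, 77.0 and 64.6 CPM and from 64.6, 66.3 and 64.2 CPM to 72.6, 88.9 and 73.5 CPM (edgeR adjusted p = 0.012 and 0.0222 with the block). All 3 genes had higher values in every 48 h library than in any 42 h library. The second 48 h library was the highest for each, and without it none of the 3 was called with the block. Other libraries mattered as well. With the block, Ccne2 was lost whichever library was left out (edgeR adjusted p at most 0.18). Mcm5 was also lost without library 2 or 3 of 42 h or library 1 of 48 h (at most 0.105). Mcm3 was also lost without library 1 or 2 of 42 h or library 3 of 48 h (at most 0.189).

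Other genes known from replication or its control were called higher with the block, and were named after their values were seen. They were Chaf1b, a subunit of the chromatin assembly factor (edgeR adjusted p = 0.0235), the maintenance DNA methyltransferase Dnmt1 (0.0314), the transcription factor E2f2 (0.0411), Tcf19 (0.0104) and the condensin subunit Ncapg2 (0.0442). With the block, Dnmt1 and Ncapg2 were lost whichever library was left out (at most 0.233 and 0.279), Chaf1b and E2f2 in 5 of the 6 such fits (at most 0.185 and 0.294) and Tcf19 in 3 (at most 0.131). With median of ratios scaling and the block, E2f2 (0.0506) and Ncapg2 (0.0504) were not called. Chaf1b was at 16.5, 19.4 and 17.6 CPM at 42 h and at 22.4, 26.8 and 20.6 CPM at 48 h. Cdc6, which loads the helicase, was just outside, at 14.5, 16.0 and 15.5 CPM and then 21.0, 21.6 and 18.9 CPM (0.0511 with the block). Of 26 mitosis and spindle genes, 19 were positive with a median of 0.06, and 0 were called or passed an unadjusted p under 0.05 in edgeR, DESeq2 or limma-voom (3 were higher at that level with the block). The 12 replication-dependent histone genes had a median of 0.09 and gave 0 calls by any of the 3 tools, with 0 at an unadjusted p under 0.05.

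The clock genes gave no call without the block. Of 25 tested, 0 were called by edgeR, DESeq2 or limma-voom without the block, and 2, Per2 and Cry1, were higher at an unadjusted p under 0.05 (1.84% of all genes). With the block 5 were higher and 1 lower at that level, against 3.9% and 4.81% of all genes. Per2, a period repressor, was at 11.1, 9.84 and 11.9 CPM at 42 h and at 14.4, 13.7 and 17.8 CPM at 48 h. The groups did not overlap, and with the block Per2 was called at a log2 difference of 0.48 ± 0.11 (SE; edgeR adjusted p = 0.0314, and 0.575 without the block). It was not called with the block when any 1 of the 6 libraries was left out (at most 0.185).

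All 5 period and cryptochrome genes had a positive difference, with Cry1 at 0.17 ± 0.08 and Per3 at 0.21 ± 0.19 on the log2 scale (SE). Per1 was at 12.0, 7.60 and 11.5 CPM and then at 11.6, 7.63 and 14.2 CPM, and the groups overlapped, although the third 48 h library was above every 42 h library. In both groups its second library was the lowest, as it was for Per3, Cry2, Nr1d1 and Bhlhe40. The differences of Per1 (0.11 ± 0.28) and Cry2 (0.11 ± 0.18) turned negative when 1 library was left out, Per1 without library 2 of 42 h or library 3 of 48 h (-0.07 and -0.11) and Cry2 without the second 42 h library (-0.03).

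On the activator side, Arntl (BMAL1) was at 33.5, 34.9 and 30.1 CPM and then at 35.7, 40.0 and 36.6 CPM. It was higher at 48 h in every library but not called (log2 0.19 ± 0.10, SE; edgeR adjusted p = 0.99998). With the block it was not called either (log2 0.19 ± 0.06, SE; edgeR adjusted p = 0.222). Clock was at 141, 137 and 152 CPM and then at 151, 120 and 141 CPM, with overlapping groups. The REV-ERB receptors, which repress Arntl, were Nr1d1, at 13.7, 8.35 and 16.1 CPM and then 10.1, 5.25 and 13.3 CPM, and Nr1d2, at 93.8, 88.5 and 86.8 CPM and then 93.1, 83.4 and 87.8 CPM. Nr1d1 was lower at 48 h in each pair of same-numbered libraries, but its groups overlapped widely (log2 -0.41 ± 0.40, SE), and Nr1d2 was near 0 (-0.03 ± 0.09). Among the other receptors and partners, Rora (0.15 ± 0.20) and Npas2 (0.59 ± 0.49) had errors as large as or close to their differences.

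Of the 13 output and accessory genes, 8 had a positive difference and 5 a negative one, between -0.17 and 0.37 on the log2 scale. Dbp, an output gene driven directly by CLOCK and ARNTL, was at 12.1, 11.6 and 12.2 CPM and then at 11.5, 14.3 and 14.6 CPM, so the first pair went down and the others up (log2 0.17 ± 0.09, SE). Its relatives had differences well within their errors, with Tef at 0.04 ± 0.09 and Hlf at 0.22 ± 0.57, the latter at under 1 CPM in every library. The repressors Nfil3 (0.01 ± 0.09), Bhlhe40 (0.09 ± 0.19), Bhlhe41 (0.04 ± 0.10) and Ciart (-0.11 ± 0.21) were equally without a call. Data were simulated from these libraries with changed genes drawn from all levels and without shared deviations by replicate number. There the test recovered 24% of genes changed by 1.3-fold and 58% of those changed by 1.5-fold. In that setting, changes of the size seen in most clock genes would mostly not be called.

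**Figure D3:**
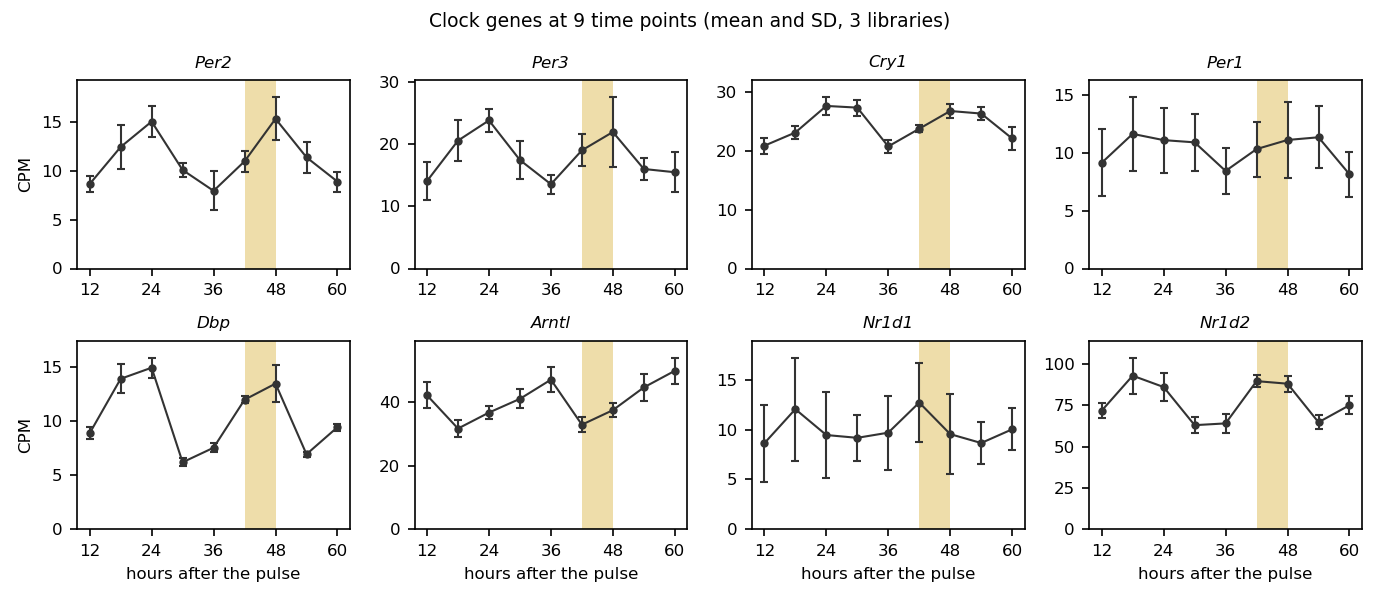
Mean CPM with SD (3 libraries) of 8 clock genes at the 9 time points, with the step from 42 h to 48 h shaded. Per2 was highest at 48 h, at 15.3 CPM, and nearly as high at 24 h, at 15 CPM, while the error bars of Nr1d1 and Per1 overlap at 42 h and 48 h.

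In the whole course, Per2 had its highest means at 24 h and 48 h (15 and 15.3 CPM) and its lowest at 12, 36 and 60 h (8.64, 7.94 and 8.88 CPM). Dbp averaged 15 CPM at 24 h and 13.5 CPM at 48 h, with low points at 30 h (6.19 CPM) and 54 h (6.93 CPM). Arntl ran differently, with low means at 18 h and 42 h (31.6 and 32.8 CPM) and high ones at 36 h and 60 h (47.0 and 49.8 CPM). The step from 42 h to 48 h thus ended at or near the top for Per2 and Dbp and began near the bottom for Arntl.

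Interferon response genes leaned upward at low levels. Of 28 tested, 26 had a positive difference, with a median of 0.27 on the log2 scale, and for 8 all 48 h libraries lay above all 42 h libraries (3.77% of all genes). None was called by edgeR with or without the block, by DESeq2 or by limma-voom, and 2 were higher at an unadjusted p under 0.05 in edgeR (1.84% of all genes; 3 with the block, against 3.9%). The 2 were Oasl2, an antiviral oligoadenylate synthetase-like protein, at 3.67, 3.27 and 4.34 CPM and then 5.13, 4.66 and 7.27 CPM, and the ubiquitin-like Isg15, at 1.99, 1.82 and 1.49 CPM and then 1.82, 3.39 and 3.44 CPM. Oasl2 did not overlap between the groups, whereas the first 48 h library of Isg15 lay within the 42 h range. At 12 h their means were 30.0 and 17.7 CPM.

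Contractile and housekeeping genes lay close to 0. Of 31 sarcomere genes, 23 were positive with a median of 0.05. edgeR called 0 with or without the block, DESeq2 and limma-voom called 0, and 1 was higher at an unadjusted p under 0.05, Mybpc2, the fast myosin-binding protein C, at 87.8, 90.6 and 89.6 CPM and then 102, 107 and 103 CPM. Myogenic factors and fusion genes had a median of 0.02, respiratory chain subunits 0.03 and ribosomal proteins 0.02, with 0 called by edgeR, DESeq2 or limma-voom and 0 at an unadjusted p under 0.05 in edgeR in each. Over all 41 lists, 29 had a positive median and 12 a negative one. The unfolded protein response (-0.02) and heat shock (-0.04) lists had medians slightly below 0.

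Some muscle genes outside the lists were called higher with the block and were named after their values were seen. They were Pvalb, the calcium buffer parvalbumin (edgeR adjusted p = 0.0246), Dok7, which activates the kinase MuSK at the neuromuscular junction (0.0379), Kcnj12, an inward rectifier potassium channel (0.0359), and the gap junction protein Gja5 (0.00553). Pvalb was at 6.25, 6.39 and 5.99 CPM at 42 h and at 8.17, 10.5 and 8.50 CPM at 48 h, and Gja5 at 142, 151 and 155 CPM and then 188, 185 and 193 CPM. Neither overlapped between the groups. With the block, Kcnj12 was lost whichever library was left out (at most 0.203), Dok7 in 5 of the 6 such fits (at most 0.213), Pvalb in 4 (at most 0.160) and Gja5 without the first 42 h or the second 48 h library (at most 0.0689). Fgfr3, a fibroblast growth factor receptor, was lower, from 7.20, 9.05 and 7.52 CPM to 4.97, 5.25 and 5.86 CPM (0.0359), and was lost with the block whichever library was left out (at most 0.281).

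In the 54 h to 60 h, 30 h to 36 h and 18 h to 24 h steps, which share no library with the step described here, the same question can be asked of the same genes. These steps called 9 (0.0709%), 24 (0.189%) and 236 genes (1.86%). Of the 17 genes, 16 had the same sign from 54 h to 60 h (5 of them called there), 16 from 30 h to 36 h (6 called) and 14 from 18 h to 24 h (7 called), and none was called in the opposite direction. Over all genes tested, 57.2%, 55.9% and 54.6% had the same sign as in the step from 42 h to 48 h. In all 3 of these steps, 13 of the 17 had the same sign, against 22.8% of all genes. Of the 69 genes called with the block, 44 did. With the block, 19 of the 69 were called in the same direction from 18 h to 24 h, 15 from 30 h to 36 h and 27 from 54 h to 60 h. In the opposite direction, 3 were called from 18 h to 24 h, 1 from 30 h to 36 h and 0 from 54 h to 60 h.

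**Figure D4:**
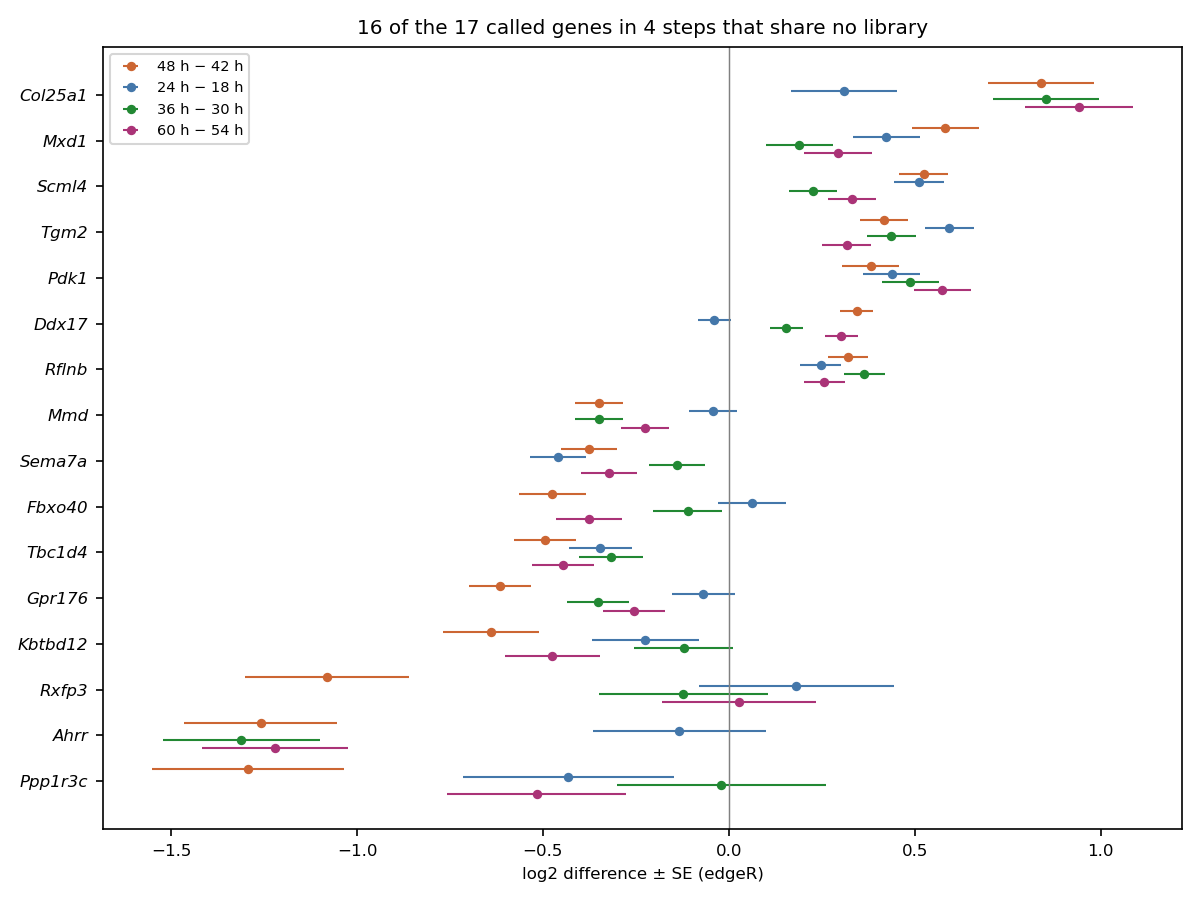
Log2 difference with its SE (edgeR, without the block) of 16 of the 17 called genes in 4 steps of 6 h that share no library. Tgm2, Pdk1 and Rflnb lie on the right in all 4 steps, whereas Ahrr is near -1.3 to -1.2 in 3 steps and near 0 from 18 h to 24 h, and Rxfp3 is away from 0 from 42 h to 48 h alone.

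Pdk1 was higher at the later time in each of these steps, by 0.44 ± 0.08, 0.49 ± 0.08 and 0.57 ± 0.08 on the log2 scale from 18 h, 30 h and 54 h (SE; edgeR adjusted p = 0.00179, 0.00438 and 0.00107). Its mean level over the 9 time points, in CPM, was 36.3, 39.6, 53.7, 49.1, 68.9, 49.6, 64.7, 44.7 and 66.4, so it alternated from 24 h on. Bnip3 did likewise, with 28.0, 31.2, 27.2 and 31.8 CPM at 24, 36, 48 and 60 h against 19.3, 21.3, 20.0 and 19.1 CPM at 18, 30, 42 and 54 h. Tgm2 also stood higher at 24, 36, 48 and 60 h (75.9, 87.1, 80.1 and 74.2 CPM) than at 18, 30, 42 and 54 h (50.4, 64.3, 59.9 and 59.6 CPM).

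Ahrr showed the opposite alternation. It averaged 4.52, 4.83 and 5.59 CPM at 30, 42 and 54 h and 1.84, 2.03 and 2.39 CPM at 36, 48 and 60 h, after 1.48 to 1.80 CPM up to 24 h. Its fall was called from 30 h to 36 h (log2 -1.31 ± 0.21, SE; edgeR adjusted p = 0.00529) and from 54 h to 60 h (-1.22 ± 0.20; 0.00739). Tbc1d4 averaged 17.7, 17, 20.8 and 20.0 CPM at 18, 30, 42 and 54 h and 13.9, 13.6, 14.8 and 14.7 CPM at 24, 36, 48 and 60 h. Whether the cultures of alternate time points were pulsed, harvested or prepared together is not given in the sources used here, so a 12 h alternation in the cells and a difference in handling cannot be told apart.

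**Figure D5:**
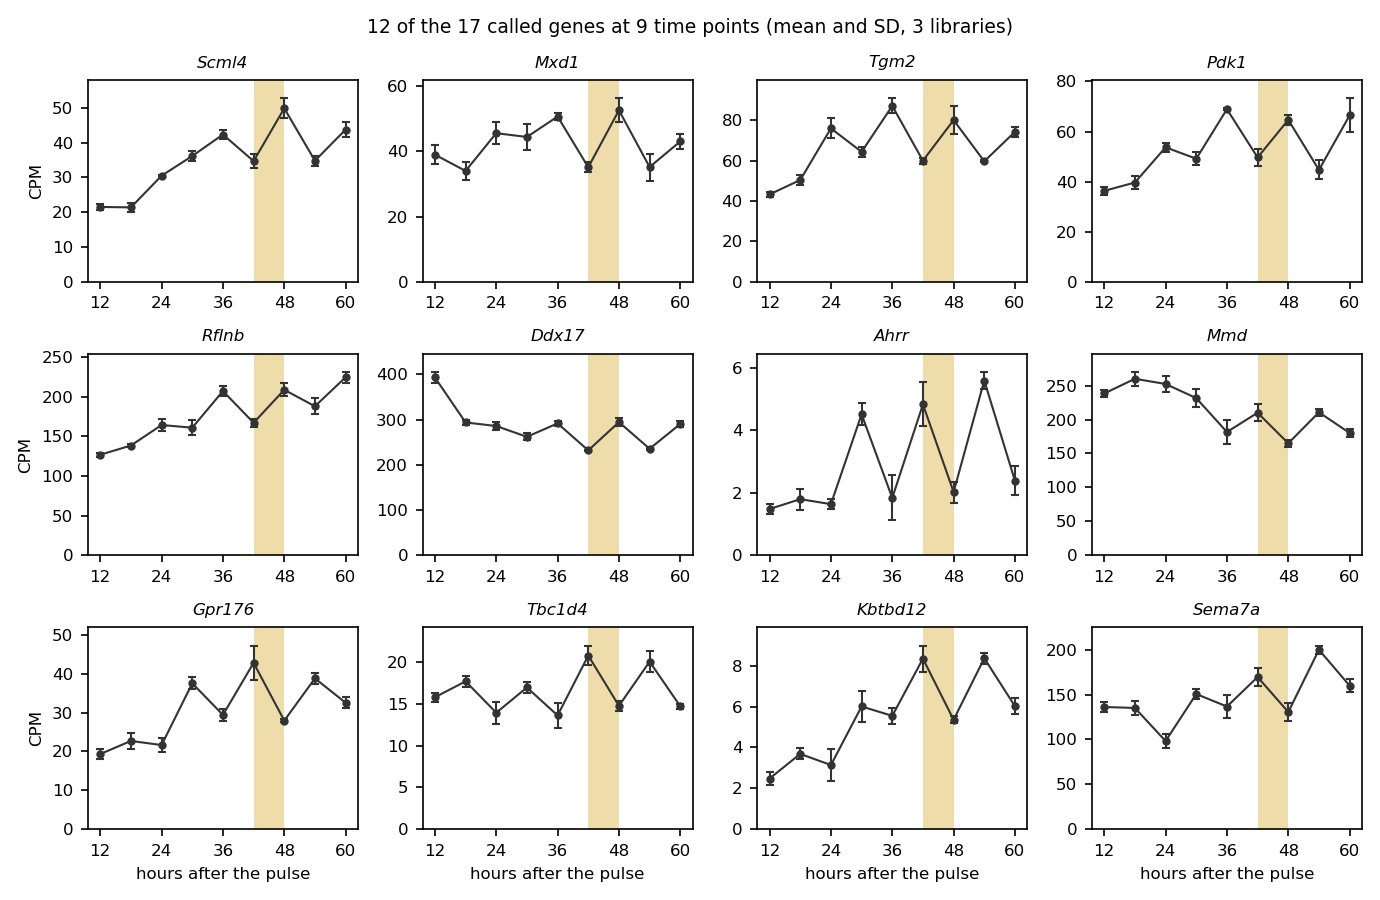
Mean CPM with SD (3 libraries) of 12 of the 17 called genes over the 9 time points, with the step from 42 h to 48 h shaded. Pdk1 and Tgm2 zigzag upward at 24, 36, 48 and 60 h, Ahrr zigzags the other way from 30 h, and Gpr176 and Kbtbd12 peak at 42 h or 54 h.

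Not every gene alternated through the whole course. Ddx17 averaged 393, 294 and 286 CPM at 12, 18 and 24 h. Its difference from 18 h to 24 h was -0.04 ± 0.04 on the log2 scale. From 30 h on Ddx17 alternated. At 30, 42 and 54 h it averaged 262, 232 and 236 CPM. At 36, 48 and 60 h it averaged 292, 294 and 290 CPM. From 54 h to 60 h it rose by 0.30 ± 0.04 (SE; edgeR adjusted p = 0.0032). Ppp1r3c was at 1.71 to 2.31 CPM up to 36 h and stood out at 42 h and 54 h, with 5.05 and 4.97 CPM. Rxfp3 had no call in any other step (log2 0.18 ± 0.26, -0.12 ± 0.23 and 0.03 ± 0.21 from 18 h, 30 h and 54 h).

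The step of the second day was compared with the step at the same hour of the first, 18 h to 24 h, as a difference of differences. At an adjusted p under 0.05, 79 genes differed (0.623%), 43 with a more positive and 36 with a more negative difference on the second day, and 285 (2.25%) with the block. Without library 1, 2 or 3 of every time point, 4, 40 and 16 genes differed. Ddx17 differed by 0.38 ± 0.06, since it rose from 42 h to 48 h and not from 18 h to 24 h (SE; edgeR adjusted p = 0.00227). Gpr176 differed by -0.55 ± 0.12 (0.0283), with a change of -0.07 ± 0.08 from 18 h to 24 h. No other gene of the 17 passed this test without the block, and no clock gene did with or without it. With the block Fbxo40 (-0.54 ± 0.13, SE without the block; edgeR adjusted p = 0.0171, and 0.0611 without), Mmd (-0.31 ± 0.09; 0.0221 and 0.189) and Ahrr (-1.13 ± 0.31; 0.0476 and 0.141) passed as well, and Rxfp3 did not (-1.26 ± 0.34; 0.0779 and 0.129).

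The genes with the smallest p-values in this test were ones that moved on the first day. Aldh1l2, a mitochondrial folate enzyme and target of the stress factor ATF4, fell from 255 to 111 CPM between 18 h and 24 h and averaged 91.6 CPM at 42 h and 120 CPM at 48 h, a difference of 1.60 ± 0.16 on the log2 scale (SE; edgeR adjusted p = 2.66e-06). With the block Aldh1l2 was itself called higher from 42 h to 48 h (log2 0.39; edgeR adjusted p = 0.0246, and 0.37 without), a call lost without any 1 of the 42 h libraries or the third 48 h library (at most 0.235). Of its exonic bases, 14.1% overlap D10Wsu102e on the opposite strand. Pck2, another gene of that response, went from 95.5 to 52.0 CPM on the first day and from 72.6 to 85.3 CPM on the second. Lss and Nsdhl, enzymes of cholesterol synthesis, went from 50.7 to 107 and from 51.9 to 96.3 CPM on the first day and from 124 to 132 and from 124 to 129 CPM on the second. Cilp, a matrix protein, went from 39.2 to 120 CPM on the first day and from 133 to 125 CPM on the second.

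The 17 called genes lie on many chromosomes (mm10 coordinates, GENCODE M21). Among them, Scml4 spans chromosome 10 from 42860370 to 42960780, Ahrr chromosome 13 from 74211118 to 74292331, Gpr176 chromosome 2 from 118277110 to 118373419, and Pdk1 chromosome 2 from 71873224 to 71903858. Counts were made per gene, so isoforms were not resolved.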

How the data were processed

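Counts per gene for 27 libraries were deposited by the authors as raw, unnormalized counts. The submitters' processing notes name mm10, Trim Galore 0.4.0, cutadapt 1.9.1 and featureCounts, without their settings, and aligner, annotation release and strand setting were not given in the sources used here. Genes were kept with filterByExpr (edgeR 4.0.16, R 4.3.3, minimum count 10), scaled by TMM (factors 0.986 to 1.01 in the 6 libraries) and fitted over all 27 libraries with time as a factor (18 residual degrees of freedom, biological coefficient of variation 11.8%), so the spread is shared by all time points. CPM use the TMM-scaled totals. Genes not tested had too few reads for a statement, and 128 IDs had no name.

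Deviations from the group means correlated between the 42 h and 48 h libraries numbered 2 and 3 (r = 0.577 and 0.488 across genes). Number 1 gave 0.132, and pairs of unlike number gave -0.508 to 0.163. The deviations within a time point cancel out, so the values of unlike pairs are not independent of the others. The number was taken to pair the libraries, by the data and not by any label. The 12 largest called changes each way (mean of at least 1 CPM, no overlap between groups, no predicted genes), clock list members, up to 4 genes per list with the smallest p and the 6 smallest p of the day difference were named; others were named after their values were seen. Of these, 1 called gene and 1 clock gene enter the fits and counts but are not reported here. The comparison and the gene lists were chosen with earlier results of these data known. DESeq2 1.42.0, limma 3.58.1 (voom), median of ratios scaling, other filters and leaving out libraries were alternatives. On simulated data without shared deviations by replicate number, 1 of 12487 unchanged genes was called. RefSeq promoters were scanned for 6 motifs.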

Additional observations from a re-analysis of the deposited data

Results flagged for a closer look

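In 15 named genes the change from 42 h to 48 h differed from that at the same hour of the first day, 18 h to 24 h, by the test of the difference (edgeR's quasi-likelihood test, adjusted p under 0.05). The values below are the log2 change on the second day minus that on the first. Genes of the ATF4 response gave positive values, 1.60 for Aldh1l2, 1.11 for Pck2, 1.22 for Trib3, 0.83 for Asns and 1.33 for Vldlr. Each was falling between 18 h and 24 h, by 0.62 to 1.2 on the log2 scale. Genes of cholesterol synthesis gave negative values, -0.98 for Lss, -0.83 for Nsdhl, -0.71 for Fdft1 and -0.59 for Sqle. The matrix gene Cilp gave -1.70, the angiopoietin Angpt4 -0.98 and Id3, an inhibitor of basic helix-loop-helix factors, -0.84, and all 3 had risen on the first day. Mybpc2 gave 0.54, Ddx17 0.38 and Gpr176 -0.55. Of the 15, Ddx17 and Gpr176 were also called between 42 h and 48 h themselves, and with the replicate block Aldh1l2 was as well (edgeR adjusted p = 0.0246).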

How the results depend on the processing

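The 17 called genes kept their direction in every alternative run. The 6 libraries fitted alone gave 0 higher and 0 lower in edgeR (369 genes at an unadjusted p under 0.05), and 18 and 24 with the replicate block. The replicate block on all libraries gave 30 and 39. DESeq2 called 16 genes lower, no filter gave 6 lower, an adjusted p under 0.01 gave 4 lower, and a minimum of 1.5-fold gave 1 higher and 5 lower. Leaving out 1 of the 6 libraries gave 4 to 6 higher and 2 to 6 lower. Leaving out 1 replicate number at every time point gave 0 and 0 for each number (368, 475 and 426 genes at an unadjusted p under 0.05). With the block, leaving out number 2 or 3 everywhere gave 3 and 6 higher and 1 and 4 lower. Leaving out 42 h library 1, 2 or 3 with the block gave 13, 15 and 11 higher and 26, 22 and 13 lower, and leaving out 48 h library 1, 2 or 3 gave 16, 8 and 17 higher and 19, 17 and 18 lower. These fits with the block and fewer libraries were chosen after seeing the data.

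The day difference gave 285 genes with the replicate block, 30 at an adjusted p under 0.01, and 4, 40 and 16 without replicate number 1, 2 and 3. Of the 10 genes called at an adjusted p under 0.01, 9, 9 and 10 had the same sign from 18 h, 30 h and 54 h. The S phase count of 12 was 6 without the second 48 h library, and 5 and 7 without the first and second number. The HIF1 count of 6 was 11 with the replicate block, on all or on 6 libraries.

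When 1 of the 6 libraries was left out, differences near 0 changed sign and ranged from -0.052 to 0.0010 for Angpt4, -0.0086 to 0.20 for Bhlhe40, -0.038 to 0.14 for Bhlhe41, -0.13 to 0.025 for Clock, -0.029 to 0.20 for Cry2, -0.43 to 0.59 for Hlf, -0.074 to 0.068 for Nfil3, -0.067 to 0.012 for Nr1d2, -0.11 to 0.32 for Per1 and -0.019 to 0.092 for Tef. Without 1 number at every time point the reversed values were 0.014 for Angpt4, -0.43 for Hlf, -0.071 for Nfil3, 0.0066 for Nr1d2 and -0.026 for Per1. The causes were not tested. In data simulated at the depth, spread and number of these libraries, 6% of genes changed by 1.2-fold were recovered and 78% of those changed by 2-fold. The simulation held no shared deviation by replicate number.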
